A study of Homo sapiens with 4 samples.

Results

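The snaR RNAs (gene symbols SNAR-A to SNAR-I) are a family of short noncoding RNAs of humans and other apes, and their array probes were taken here as every gene probe whose name begins with SNAR-. These were 13 probes under 12 gene names, of 58201 gene probes under 43317 names. Levels were measured with Agilent 1-colour microarrays in 2 human cancer cell lines, HCT116 (colorectal) and A549 (lung), each transfected by Dharmafect1, a lipid reagent, with the microRNA miR-891b or with the negative control RNA NC1. The study was set up around PSAT1, an enzyme of serine synthesis, and the vesicles that cancer cells release. With 1 array for each RNA in each line, 4 in all, no difference below has a replicate check or a p-value, and precision is limited by the count of arrays. Both arrays of a line shared a slide, and line and slide cannot be told apart. The family was chosen by its signal on these arrays and its changes with miR-891b in each line, which are therefore given as a description.

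The snaR RNAs are transcribed by RNA polymerase III, which also makes tRNAs and other small structured RNAs, from promoter elements inside the gene. They fold into double-stranded hairpins and are known to be abundant in immortalised and cancer cell lines, with testis as the main normal site of expression. Most of the genes lie in tandem arrays on chromosome 19, and SNAR-G1 and SNAR-G2 lie among the chorionic gonadotropin genes. A microRNA such as miR-891b lowers transcripts that pair with its seed, the bases near its 5′ end.

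The probe sequences show how far the members can be told apart, so the 7 probes that run in the sense of a RefSeq snaR RNA are printed here, 5′ to 3′ as given in the array's probe table. Capitals mark GTTCGANNC, the letters of the box B element of polymerase III promoters.

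SNAR-A3: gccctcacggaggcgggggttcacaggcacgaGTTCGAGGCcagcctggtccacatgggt
SNAR-B2: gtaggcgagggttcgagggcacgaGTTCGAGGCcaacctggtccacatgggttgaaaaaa
SNAR-D: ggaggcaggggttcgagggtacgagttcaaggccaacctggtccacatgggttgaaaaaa
SNAR-H: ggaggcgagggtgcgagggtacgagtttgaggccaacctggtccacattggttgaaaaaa
SNAR-G2: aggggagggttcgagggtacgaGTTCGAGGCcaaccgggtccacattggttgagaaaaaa
SNAR-F: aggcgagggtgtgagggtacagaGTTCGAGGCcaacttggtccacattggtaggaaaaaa
SNAR-G1: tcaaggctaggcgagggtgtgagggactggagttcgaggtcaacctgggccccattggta

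These 7 probes of 60 bases are close relatives of each other. Over the 21 pairs, the aligned stretches were 72.9% to 91.7% identical. The longest run of bases shared by a pair was 8 to 31, with SNAR-B2 and SNAR-D sharing 31. SNAR-G1 stood furthest from SNAR-A3, at 72.9%, and its nearest relative was SNAR-F, at 86.8%. Against the 58188 other gene probes, the longest shared run was 16 bases, with the ribosomal protein gene RPL10L, and 30 probes shared 12 bases or more. Whether a labelled snaR RNA binds several of these probes was not tested, so a value belongs to the probe rather than to 1 gene copy. RefSeq (table of GRCh38.p14) lists 28 SNAR genes of 119 to 128 bases, 14 of them SNAR-A and 5 SNAR-C copies, and 16 of the 28 have no probe under their name.

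The box B letters occurred in 4 of the 7 probes, those of SNAR-A3, SNAR-B2, SNAR-G2 and SNAR-F, and in 47 (0.0808%) of all 58201 gene probes, read on the probe strand. Of the 7 probes, 5 end in a run of 6 A. Their positions, on hg19, were as follows. The SNAR-A3 probe lies at chr19:48427077-48427136 on the plus strand. SNAR-G2 (chr19:49534934-49534993, minus strand) and SNAR-G1 (chr19:49540322-49540381, plus strand) are close neighbours, as are SNAR-B2 (chr19:50637012-50637071) and SNAR-D (chr19:50643469-50643528), both on the minus strand. SNAR-F lies at chr19:51108271-51108330 on the plus strand, and SNAR-H at chr2:78182044-78182103 on the minus strand. Exon annotation of this build was not used here.

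The other 6 probes are of another kind. The SNAR-I probe (chr3:190595730-190595789, plus strand) is named for a RefSeq snaR RNA but runs as the reverse complement of the family sequence. It is shown because its capitals are the box B letters on the opposite strand, and it shares a run of 24 bases with the reverse complement of the SNAR-H probe.

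SNAR-I: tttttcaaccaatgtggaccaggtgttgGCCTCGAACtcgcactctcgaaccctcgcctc

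The remaining 5 were designed on expressed sequence tags assigned to SNAR-C3, SNAR-C4, SNAR-B1, SNAR-E and, as a second probe, SNAR-G1. None of these 5 shared more than 7 bases in a row with any other member on either strand, and 4 have no genome position in the array files. The SNAR-E probe lies at chr19:47334133-47334192. Whether these tags are snaR transcripts could not be read from the probe letters.

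The mature miR-891b, from RefSeq, is printed with its seed, bases 2 to 8, in capitals, since its complement was looked for in the snaR probes.

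miR-891b: uGCAACUUaccugagucauuga

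The seed's complement, AAGTTGC, occurred in 0 of the 13 snaR probes and in 229 (0.393%) of all gene probes, on the probe strand. This covers only the 60 bases under each probe.

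The arrays are described in brief. Between 44.7% and 50.3% of gene probes were well above background by the mark that the scanner software sets, and no gene spot was saturated. All 9 genes used as markers (5 of A549, 4 of HCT116) lay on the labelled side on the NC1 arrays, and again on the miR-891b arrays. AKR1B10, an aldo-keto reductase on the A549 side, rose within HCT116 from -2.29 with NC1 to 2.18 with miR-891b, against 9.88 and 9.69 in A549. Of the other A549 markers, ALDH3A1 and NQO1 changed by -0.48 and -0.51 in HCT116. AKR1C1 and ALDH1A1, by their brightest probes, were not well above background on both HCT116 arrays. Areas with stray signal took up 10.5% of the gene spots of the HCT116 array with miR-891b (areas where at least 10% of nearby spots that were dim elsewhere were well above background), against 2.19% or less on the other arrays.

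The snaR probes fell into a very bright and a very dim set. All 7 sense probes passed the background mark on each of the 4 arrays, and 6 of them ranked between 1 and 196 in signal on each array. Of the other 6, SNAR-C4 and SNAR-E were near the lower end of the measured range on all 4 arrays, SNAR-I was measured on 3 arrays, SNAR-C3 on 1, and SNAR-B1 and the second SNAR-G1 probe on none. Signals below are the processed intensities, in the order NC1, then miR-891b, first of HCT116 and then of A549. A signal depends on how well each probe binds, so signals of different probes are not compared as RNA amounts.

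SNAR-A3, a copy of the largest subfamily, gave 160445, 189468, 159037 and 165715. Its probe was the brightest of all gene probes on 3 arrays and ranked 2 on HCT116 NC1. SNAR-B2 gave 117717, 143089, 108862 and 110836, and SNAR-D gave 95923, 131362, 87315 and 95227. In these 3 the HCT116 miR-891b array was the highest of the 4, and the other arrays lay close together.

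SNAR-H, the copy on chromosome 2, gave 70980, 105954, 70047 and 77672. SNAR-G2 gave 60765, 92454, 63787 and 73981, and SNAR-F gave 32566, 71229, 48025 and 63974. In these 3 the unscaled signals of both miR-891b arrays lay above those of both NC1 arrays. After scaling to the 75th percentile this held for SNAR-F, while the A549 miR-891b level lay below that of HCT116 NC1 for SNAR-H (10.03 against 10.34) and SNAR-G2 (9.96 against 10.11).

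SNAR-G1, the most diverged of the 7, gave 3641, 14637, 5292 and 15107. Its miR-891b arrays were nearly level, and far above both NC1 arrays. Its rank among gene probes moved from 1343 to 409 in HCT116 and from 1141 to 350 in A549.

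The dim probes gave signals below 50. SNAR-C4 gave 12.6, 20.0, 15.3 and 21.0, again higher on both miR-891b arrays. SNAR-E gave 8.99, 8.33, 12.8 and 9.87, and SNAR-I gave 8.24, 8.08, 10.4 and 5.79, of which the last was not well above background. The SNAR-E and SNAR-I probes did not share the pattern of the sense probes. SNAR-C3 gave 2.73, 47.8, 1.84 and 2.93 and was well above background on HCT116 miR-891b only, in an area of that array with stray signal (14.7% of nearby spots). The second SNAR-G1 probe gave 2.81 to 4.41 and SNAR-B1 gave 1.26 to 1.73.

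**Figure D1:**
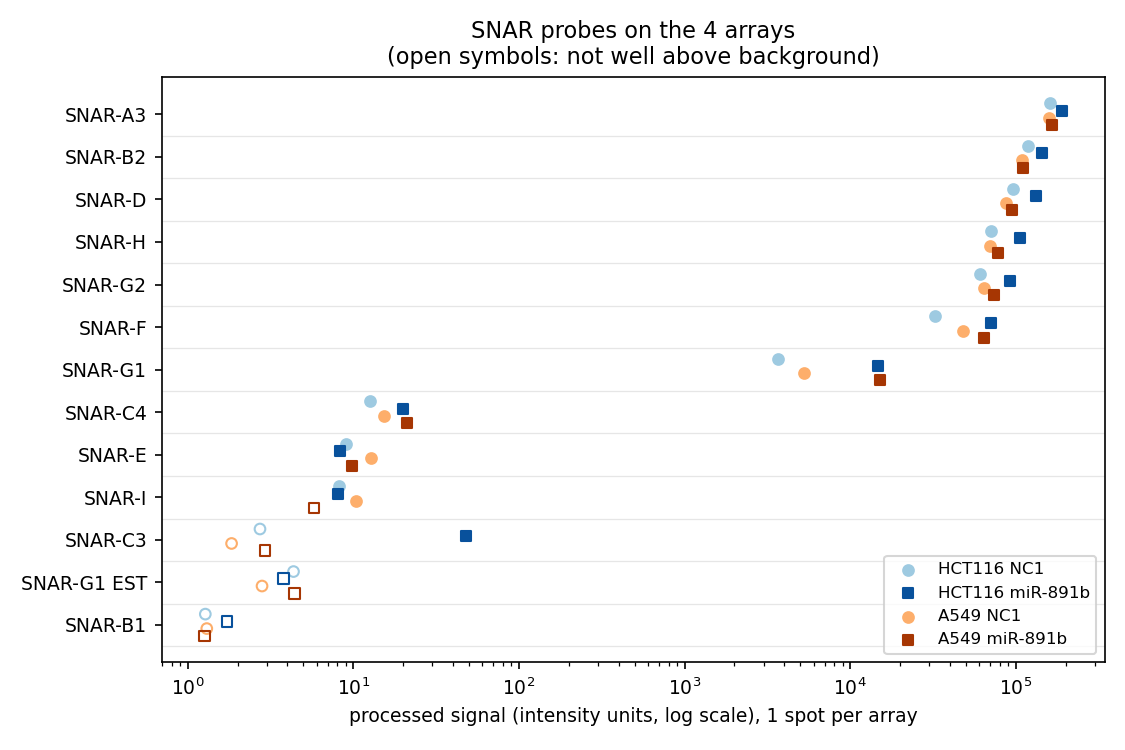
Processed signal of the 13 snaR probes (horizontal, log scale, intensity units), 1 spot per array, with 1 symbol for each of the 4 arrays and open symbols where a spot was not well above background. The 7 sense probes lie between 3641 and 189468, the other 6 between 1.26 and 47.8.

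The first comparison set miR-891b against NC1 within each line, on the log2 scale after each array was scaled to its 75th percentile of gene probes. All 7 sense probes were higher with miR-891b in HCT116, by 0.19 to 1.95 with a median of 0.52. All 7 were also higher in A549, by 0.036 to 1.52 with a median of 0.16. SNAR-G1 rose most in both lines, 3.87-fold in HCT116 and 2.88-fold in A549, and SNAR-F came next. SNAR-A3 and SNAR-B2 moved least, and SNAR-A3 was at 0.00 in A549 under quantile normalization and in both lines under normexp with quantile normalization.

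A difference of 2-fold or more was called a change. In HCT116, 10 of 13 snaR probes were measured (well above background on both arrays), of which 2, SNAR-G1 (1.95) and SNAR-F (1.07), were at least 2-fold higher and none was at least 2-fold lower. Of all 24667 probes measured in HCT116, 1.25% were at least 2-fold higher and 0.799% at least 2-fold lower. In A549, 9 were measured, of which 1, SNAR-G1 (1.52), was at least 2-fold higher and none was at least 2-fold lower, where 3.94% of 27733 probes were higher and 5.56% lower. Since the family was chosen with these contrasts known, nothing is read from the comparison of these shares. Over the measured snaR probes, the median was 0.46 in HCT116, with 8 of 10 above 0, and 0.16 in A549, with 8 of 9 above 0. The medians over all measured probes were -0.030 and -0.062.

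On the 75th percentile scale the order of the sense probes by change was the same in both lines, except that SNAR-A3 and SNAR-B2 exchanged places. SNAR-D changed by 0.40 in HCT116 and 0.14 in A549, SNAR-H by 0.52 and 0.16, and SNAR-G2 by 0.55 and 0.22. SNAR-F, closest in sequence to SNAR-H, changed by 1.07 and 0.42. On the 75th percentile scale each of the 7 sense probes had a larger change in HCT116 than in A549, with A549 minus HCT116 between -0.12 for SNAR-A3 and -0.65 for SNAR-F, but this direction turned with quantile normalization for SNAR-G1 (1.98 in HCT116, 2.01 in A549) and SNAR-B2 (0.069 and 0.18). With normexp and quantile normalization it turned for SNAR-G1 (1.92 and 1.96), SNAR-B2 (0.10 and 0.20) and SNAR-D (0.20 and 0.29), and SNAR-A3 was at 0.00 in both. With the mean over both SNAR-G1 probes, its change was 0.85 in HCT116 and 1.09 in A549. None of these differences between the lines was tested. SNAR-C4 changed by 0.61 and 0.47, short of 2-fold, while SNAR-E changed by -0.16 and -0.37. SNAR-I changed by -0.084 in HCT116. On the 75th percentile scale it was at least 1.78-fold lower in A549, taking its own signal as the bound on the array where it was not well above background. With normexp and quantile normalization these dim probes moved less in A549, SNAR-I by -0.073, SNAR-E by -0.088 and SNAR-C4 by 0.11. SNAR-C4 changed by 0.15 in HCT116 with that setting.

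**Figure D2:**
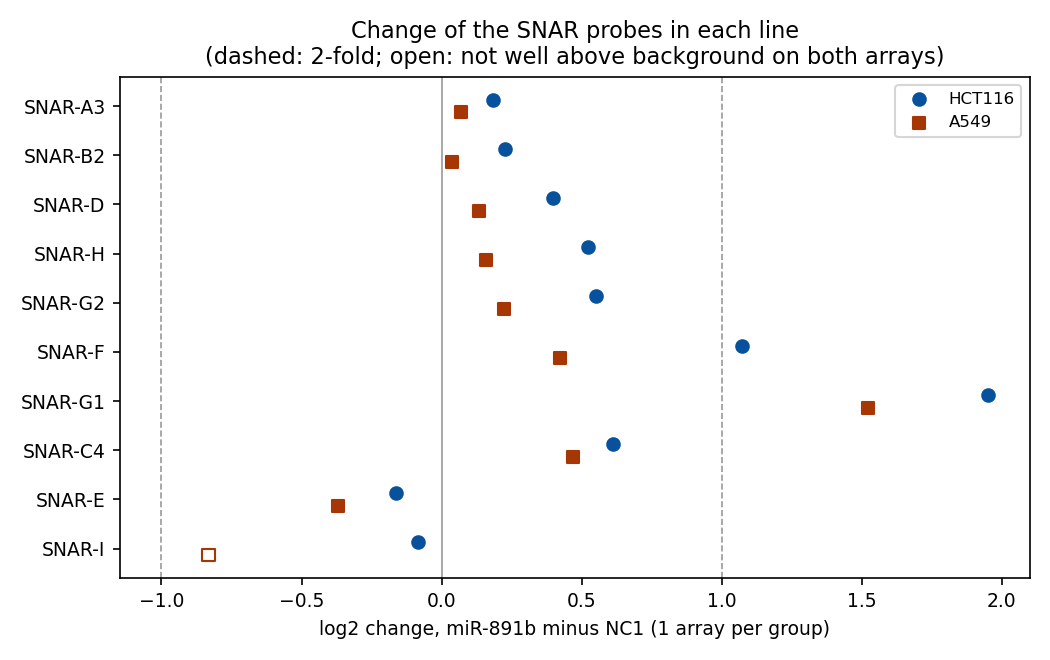
Log2 change with miR-891b (horizontal, miR-891b minus NC1) of the 10 snaR probes well above background on at least 3 arrays, in HCT116 (circles) and A549 (squares), 1 array per group, with dashed lines at 2-fold. The sense probes run from 0.19 for SNAR-A3 to 1.95 for SNAR-G1 in HCT116 and from 0.036 for SNAR-B2 to 1.52 for SNAR-G1 in A549.

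The only error these arrays give is that between spots of 1 probe. Each snaR probe was printed at 1 spot. Among probes printed at 5 spots or more, the median SD of a spot's change was 0.061 in HCT116 (276 probes) and 0.071 in A549 (287 probes), and 0.033 (8 probes) and 0.043 (6 probes) among those with a mean level of 8 or more. All 7 changes in HCT116 were larger than these SDs. In A549 the SNAR-B2 change of 0.036 was smaller than either SD and the SNAR-A3 change of 0.070 was smaller than the first. The spread between cultures was not measured.

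The change with miR-891b was larger the dimmer the probe. Over the 7 sense probes, Spearman's rho between the change and the mean level was -1 in HCT116 and -0.96 in A549, and Pearson's r was -0.98 in both. Without SNAR-G1, r was -0.93 and -0.89. The probes also share sequence, and their identity to SNAR-A3 gave the same rho in each line, so that signal and sequence order cannot be told apart here. These are descriptions over 7 probes on the same arrays.

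Control RNAs of known identity, the E1A spike-ins, gave a second view of the bright range. Of 10 such probes with 35 spots each, 7 were well above background at every spot. Their changes ran from -0.25 to -0.028 in HCT116 and from -0.074 to 0.079 in A549. All 7 sense snaR probes lay above the highest of them in HCT116, and 5 of 7 did in A549. The brightest spike-in, E1A_r60_1, gave 82693 on HCT116 NC1 and 70922 on A549 NC1 and changed by -0.12 ± 0.035 (SD over 35 spots) and -0.074 ± 0.048. In HCT116 the changes of the 7 spike-ins had no steady order with signal, at -0.12 for the brightest and -0.20 for the dimmest. In A549 they went from -0.074 at the brightest to 0.079 at the dimmest, the direction of the snaR probes over a smaller span. Whether this bears on the snaR changes was not tested. The SNAR-A3 and SNAR-B2 probes, and SNAR-D, were brighter than any spike-in on all 4 arrays.

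**Figure D3:**
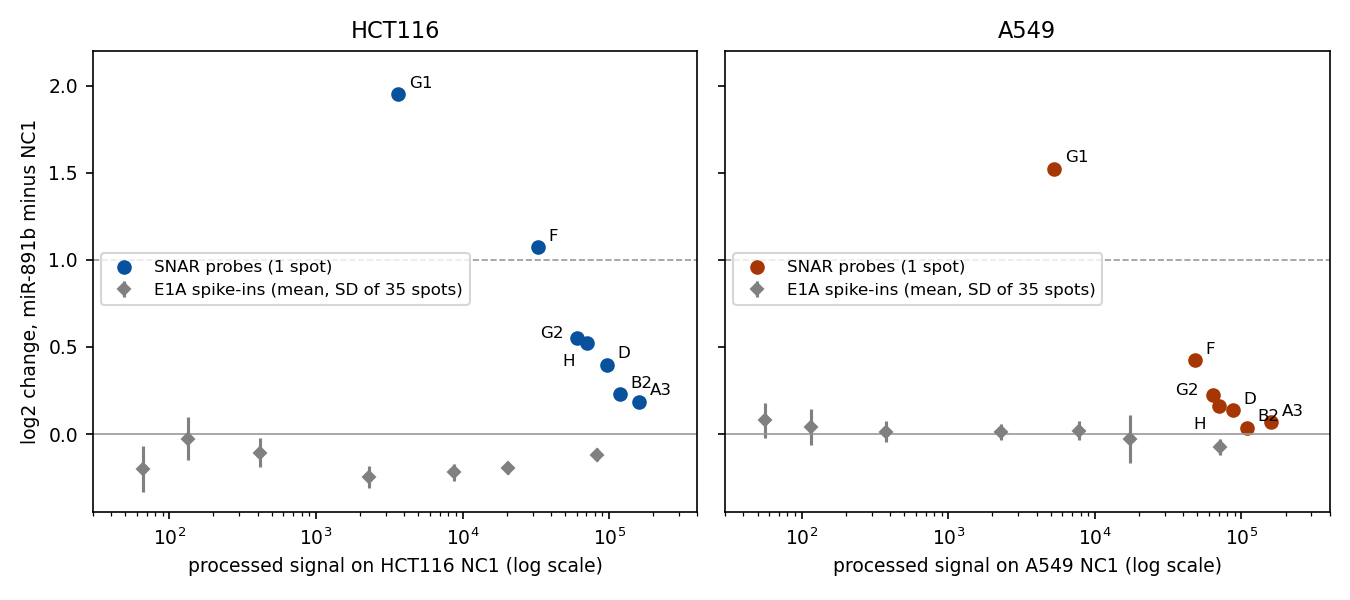
Log2 change (vertical, miR-891b minus NC1) against the processed signal on the NC1 array (horizontal, log scale) for the 7 sense snaR probes (letters, 1 spot each) and the 7 E1A spike-ins well above background at every spot (grey, mean and SD of 35 spots). The snaR changes fall from 1.95 at SNAR-G1 to 0.19 at SNAR-A3 in HCT116 and from 1.52 to 0.070 in A549, while the spike-ins stay between -0.25 and 0.079.

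Other probes as bright as these had a median change below 0. Over the 365 measured probes with a mean level of 8 or more, the median change was -0.15 in HCT116 and -0.42 in A549. SNAR-F had the highest change of the 365 in HCT116, and it was the 1 probe among them at least 2-fold higher. SNAR-G2 ranked 3, SNAR-H 4, SNAR-D 6, SNAR-B2 16 and SNAR-A3 22. In A549 the ranks ran from 5 for SNAR-F to 43 for SNAR-B2, and the highest change among the 365 was 0.68. SNAR-G1, with a mean level of 6.97, was outside this set. The family was chosen with these changes known, so the ranks are a description and nothing is read from them.

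The second comparison set A549 against HCT116. On the NC1 arrays the 7 sense probes differed by -0.58 to 0.11, with a median of -0.46 and 5 of 7 lower in A549. The direction depended on the scaling, since the median became 0.13 with quantile normalization, 0.060 with normexp and quantile normalization and 0.16 with scaling on the spike-ins, where none of the 7 was lower. SNAR-A3 differed by -0.46, SNAR-D by -0.58, SNAR-F by 0.11 and SNAR-G1 by 0.094. On the miR-891b arrays all 7 were lower in A549 on the 75th percentile scale, by -0.85 to -0.34 with a median of -0.70, and spike-in scaling gave -0.25 with 6 of 7 lower. Both quantile settings gave a median of 0.00 there, with 3 of 7 lower. That 0.00 is the value of SNAR-A3, which these settings fix because its probe was the brightest on both miR-891b arrays, so nothing is read from it. None of the 10 snaR probes measured on both NC1 arrays was past 2-fold between the lines, where 27.0% of 24793 probes were. In total RNA, fewer expressing cells and less RNA per cell cannot be told apart.

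**Figure D4:**
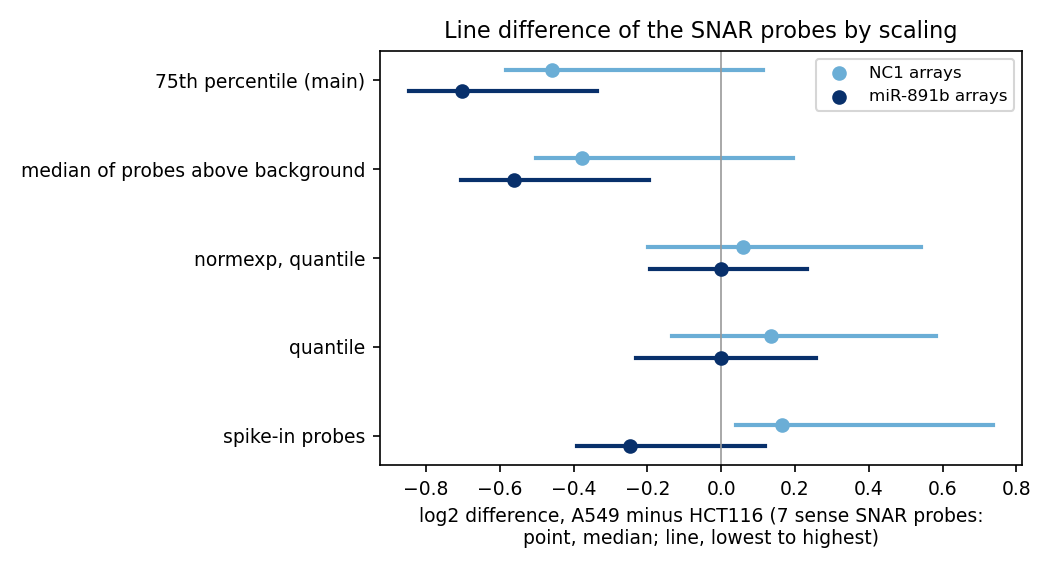
Log2 difference of the 7 sense snaR probes, A549 minus HCT116 (horizontal), on the NC1 and on the miR-891b arrays under 5 scalings (rows), with points at the median and lines from the lowest to the highest probe. The NC1 median runs from -0.46 to 0.16 with the scaling.

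The synthesis machinery of the snaR RNAs and the RNA-binding protein gene ILF2 were then set beside them, from lists written out of general knowledge with earlier results of these arrays known. ILF2 had levels of 6.96 and 6.84 in HCT116 (NC1, then miR-891b) and 5.94 and 5.43 in A549. It was not past 2-fold, with changes of -0.12 and -0.51, the first of which was at 0.040 with spike-in scaling.

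Of 29 genes for polymerase III subunits and its initiation factors, 28 were measured in each line. None was past 2-fold in HCT116, where 1.16% of 19105 genes were higher and 0.843% lower, and the list median was 0.040 beside -0.041 for all genes. In A549, 3 were past 2-fold, all 3 lower, where 9.58% of 21336 genes were past 2-fold and 5.57% were lower. The list median there was -0.36 beside -0.059 for all genes. Among the 3, POLR3G, a subunit of the form of the enzyme found in stem and cancer cells, fell by 1.59 in A549 and differed by 0.26 in HCT116. POLR2K, a small subunit shared by all 3 nuclear polymerases, fell by 1.67 in A549, and TBP, the TATA-binding protein, fell by 1.14. With normexp and quantile normalization TBP differed by -0.61, short of 2-fold, and POLR3G by -1.02. BRF2, a factor for genes with promoters outside the transcribed part, was at 0.998 in A549, just under 2-fold. Its spot lay in an area with stray signal on the array where the share of such nearby spots was highest (22.1%), which need not be an A549 array. BRF2 was past 2-fold in A549 with median scaling and with quantile normalization. POLR1D, a subunit shared with polymerase I, was as near to 2-fold on the other side, at -0.997 in A549 and -1.01 with spike-in scaling. A second POLR1D probe did not fall in A549, at 0.12.

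None of the 6 regulators and RNA binders (MAF1, SSB, LARP7, LARP4, XPO5 and DICER1) was past 2-fold in either line, and their medians were 0.19 and -0.26. Of all genes, 1.16% were higher and 0.843% lower in HCT116, and 9.58% were past 2-fold in A549. MAF1, the repressor of polymerase III, differed by -0.18 and -0.20. SSB, the La protein that binds the U-rich end of new polymerase III transcripts, differed by 0.31 and -0.40.

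Other polymerase III RNAs were measured by 9 probes, all on all 4 arrays, while 8 further names of the list were not found on the array. Their median change was -0.11 in HCT116 and 0.059 in A549, with 4 of 9 and 5 of 9 above 0. Only RNU6ATAC, a small nuclear RNA of the minor spliceosome, was past 2-fold in HCT116, at 1.28, where 1.16% of all genes were higher and 0.843% lower. None was past 2-fold in A549, where 9.58% of all genes were, and RNU6ATAC was at 0.37 there. Its spot lay in an area with stray signal (20.0% of nearby spots on the array where this share was highest). With normexp and quantile normalization RNU6ATAC was at 0.75 in HCT116, short of 2-fold. RN7SL1, the RNA of the signal recognition particle, whose probe is as bright as those of the snaR RNAs, differed by -0.23 and -0.45. RN7SK, which holds back the elongation factor P-TEFb, differed by -0.28 and 0.24.

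The RNA subunits of RNase MRP and RNase P, RMRP and RPPH1, differed by -0.12 and 0.19 in HCT116 and by 0.059 and -0.0054 in A549. Of the vault RNAs, VTRNA1-1 differed by -0.11 and 0.35, VTRNA1-2 by 0.10 and 0.17, and VTRNA1-3 by 0.25 and -0.044. VTRNA2-1 differed by -0.63 and -0.78. On the 75th percentile scale, RNU6ATAC and VTRNA1-2 were the 2 of these 9 above 0 in both lines, and several of the others lay near enough to 0 to change sign with the scaling, RMRP in HCT116 (0.044 with spike-in scaling) among them.

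**Figure D5:**
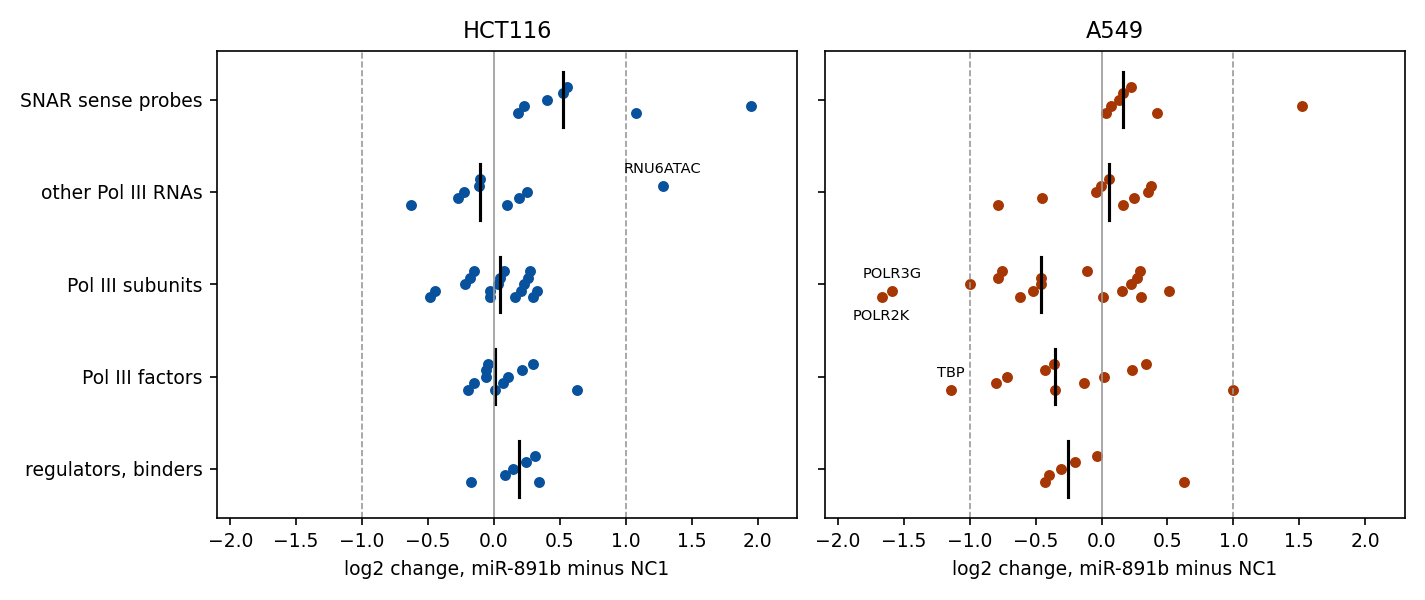
Log2 change with miR-891b (horizontal) of the measured genes of each list (rows) in HCT116 and A549, 1 point per gene, with the list median as a black bar, dashed lines at 2-fold and names for list genes past it. The medians are 0.52 and 0.16 for the sense snaR probes and -0.11 and 0.059 for the other polymerase III RNAs. The snaR family was chosen with these changes known, so nothing is read from this order.

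The genes next to the SNAR genes had a median change below 0 in both lines, and whether any of them changes with its SNAR neighbour was not tested. By gene order in RefSeq, 29 genes with a probe were among the nearest 2 on either side, and 14 were measured in HCT116 and 13 in A549. None of those measured was past 2-fold in HCT116, where 1.16% of all genes were higher and 0.843% lower. In A549, 1 was, beside 9.58% of all genes. The medians were -0.19 and -0.21. The genes on both sides of the array that holds SNAR-A3 (SULT2A1, CRX, BSPH1 and ELSPBP1) were not well above background on any array, although the SNAR-A3 probe was among the brightest on all 4. Around the SNAR-B2 and SNAR-D array, MYH14, a nonmuscle myosin heavy chain, differed by -0.28 and 0.090.

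Around SNAR-G1 and SNAR-G2, LHB, the luteinising hormone beta chain, differed by 0.91 and -0.32, CGB7, a chorionic gonadotropin beta gene, by -0.53 and 0.11, and RUVBL2, a helicase, by -0.22 and -0.78. With spike-in scaling LHB was past 2-fold in HCT116, at 1.07. CGB, of the same cluster, was at least 2-fold lower in HCT116 (-1.20), a call lost with normexp and quantile normalization (-0.46). SNAR-G1 and its neighbours thus had no common direction. IL1RAP, the accessory chain of the interleukin 1 receptor and a neighbour of SNAR-I, was the 1 neighbour past 2-fold in A549 (-1.57). In HCT116 its level was -1.65 with NC1 and -3.58 with miR-891b, the second not well above background, so no change was called there.

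The genes most like the family over the 4 arrays were sought by the distance of their centred log2 profiles to the mean of the 9 snaR probes well above background on all 4. Among 13629 genes, the nearest were PCYT1A (distance 0.048), an enzyme of phosphatidylcholine synthesis, LGALS8 (0.056), a galectin, the antisense RNA ENTPD1-AS1 (0.060), ADAL (0.083) and TTC1 (0.089). PCYT1A changed by 0.56 in HCT116 and 0.24 in A549. With 4 arrays, many genes can lie close to any profile.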

How the data were processed

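Per the labels' protocols, total RNA was labelled with Agilent's low-input amplification kit. Per the file headers, the scans were read with Agilent Feature Extraction 11.5.1.1, which subtracted background and spatial trends within each array. The deposited scanner files hold intensity on a linear scale, with marks of 0 or 1 for each spot. The authors' deposited log2 values equalled the setting used here with a median difference of at most 0.0069 on any array (largest 0.11), so scale and centring (array medians -3.80 to -3.60) are those of the 75th percentile.

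Processed signals were put on the log2 scale and averaged over a probe's spots, less any with outlier marks, and the array's 75th percentile over gene probes was subtracted (54.9, 57.0, 74.8 and 74.2 intensity units in the order of the groups). For a gene with several probes, that of the highest mean stood for it. A simplified form of the step, with no outlier or background marks, was tested on simulated copies of the HCT116 NC1 array with planted changes of 2-fold or more. Smaller changes were not simulated. Members, lists, rules and alternatives were chosen with earlier results of these data known. Named genes were the SNAR names, ILF2, list genes past 2-fold, polymerase III RNAs measured on all arrays, neighbours and the 5 nearest profiles. BRF2, POLR1D, the regulators and the A549 markers were named after their values were seen. An item that these rules select is not reported here. All 8 SNAR accessions of RefSeq matched its table by name. Alternatives were quantile normalization, normexp (offset 50, limma 3.58.1 in R 4.3.3) with quantile normalization, median scaling, the authors' values, no filter, outlier spots kept, no areas with stray signal and means over probes. Python 3.11.15, numpy 2.4.6 and pandas 2.3.3 were used.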

Additional observations from a re-analysis of the deposited data

Results flagged for a closer look

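POLR3G, a polymerase III subunit, moved in opposite directions in the lines, with a change of 0.26 in HCT116 and -1.59 in A549; the difference was not tested. A second POLR3G probe gave 0.62 and -1.44. TBP also had changes of opposite sign, with a small 0.11 in HCT116 and -1.14 in A549, and the difference was not tested. With normexp and quantile normalization its A549 change was -0.61, short of 2-fold.

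SNAR-C3 was outside the comparisons because it was well above background on HCT116 miR-891b only, with a signal of 47.8 there and 1.84 to 2.93 on the other arrays, which makes it at least 9.80-fold higher than on HCT116 NC1. Its spot lay where 14.7% of nearby spots that were dim elsewhere were well above background, and the part of the stray signal in its value was not tested.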

How the results depend on the processing

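No paired analysis was possible because each group holds 1 array. Scaling on the spike-ins, the sense probes alone and the list alternatives were added after the data were seen. The median change of the measured snaR probes stayed above 0 in every setting run. In HCT116 (0.46) it was 0.40 with no filter, 0.175 with normexp and quantile normalization, 0.52 over the sense probes and 0.62 with spike-in scaling. In A549 (0.16) it was 0.26 with median scaling, 0.29 with normexp and quantile normalization and 0.33 with quantile normalization. The count past 2-fold in HCT116 (2) fell to 1 with the mean over probes of a name, where the dim second probe brought SNAR-G1 to 0.85, and was 3 with no filter. The line difference on the NC1 arrays (-0.27 over the 10 measured probes) was -0.42 both with the mean over probes and with no filter, -0.19 with median scaling, -0.019 with normexp and quantile normalization, 0.025 with quantile normalization, -0.46 over the sense probes and 0.35 with spike-in scaling, so its direction depends on the scaling. Spike-in scaling raised every HCT116 change by 0.16 and every NC1 line difference by 0.62. The polymerase III subunits and factors in A549 (-0.36) had medians of -0.26 with median scaling, -0.12 with normexp and quantile normalization and -0.17 with quantile normalization, and in HCT116 (0.040) 0.20 with spike-in scaling. The other polymerase III RNAs in A549 (0.059) had medians of 0.158 with median scaling and 0.159 with quantile normalization, and in HCT116 (-0.11) 0.052 with spike-in scaling. Quantile normalization gives the brightest probe of each array 1 value, which fixes SNAR-A3 at 0.00 where it is brightest on both arrays. Signal over background limits SNAR-I, SNAR-C3, SNAR-B1 and the second SNAR-G1 probe.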
